A study of Mus musculus with 6 samples.

Results

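Mitochondria in muscle fibres fuse, divide and fold their inner membrane into cristae, and 10 genes that encode the core of this machinery were followed in the quadriceps of tumour-bearing mice. They are Mfn1, Mfn2 and Opa1 for fusion, Dnm1l, Fis1 and Mff for fission, Oma1 and Yme1l1 for the proteases that cut OPA1, and Immt and Chchd3 for cristae. They were taken by gene symbol from a list of known genes, with every probe of the array that the platform annotation assigns to one of them. The 10 genes have 26 of the 45281 probes and are 10 of the 19057 genes named on the array. Of the 26 probes, 14 probes of 8 genes were detected (detection p below 0.05) on at least 2 of the 6 arrays and were tested. The other 12 probes were not, and with them Opa1 and Chchd3 went untested.

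The mice were NOD-SCID, a strain that lacks functional T and B lymphocytes, and they ate ad libitum. Each had received cells of a human renal cancer line, RXF393 or SKRC39, under the skin, and quadriceps was taken after 22 days. The number of cells given was the same for all 6 arrays, so the lines did not differ in dose. The labels call RXF393 cachectic and SKRC39 not cachectic, and cachexia is the wasting of muscle and fat that some tumours bring about. No mice without a tumour were analysed here, so RXF393 is compared with another tumour and not with healthy muscle. The design text speaks of 3 mice and of 6 RNA samples, read here as 1 mouse per array. On that reading the p-values measure the spread between mice.

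Total RNA was hybridised to MouseWG-6 v2.0 beadchips, and levels are given as background-corrected, quantile-normalised log2 intensity, a scale on which amounts cannot be compared between probes. Labels name 1 line throughout on 4 of the 6 arrays, which are replicates 1 and 2 of SKRC39 and replicates 2 and 3 of RXF393. The array titled RXF_1 is described as SKRC39 in its other labels, and the array titled SKR_3 as RXF393. Both are shown apart and enter no group. The share of probes that was detected was lowest on the array titled SKR_3 (30.3%) and on RXF393 replicate 3 (30.9%). It was 33.7% for RXF393 replicate 2 and 33.7% for SKRC39 replicate 2. The array titled RXF_1 had 36.5%, and SKRC39 replicate 1 had 37.7%. Whether low member readings on the arrays with the lowest shares go with this lower detection was not tested. Across the 17738 tested probes, the 2 RXF393 arrays were unlike each other, and a group of 2 cannot show which is the odd one. RXF393 replicate 3 correlated at 0.896 with RXF393 replicate 2 and at 0.985 with the array titled SKR_3. RXF393 replicate 2 correlated at 0.937 with SKRC39 replicate 2. The array titled RXF_1 correlated at 0.980 with SKRC39 replicate 1. Members whose value rests on 1 RXF393 array are therefore given with and without that array. All 11 of the muscle fibre markers present on the array (of 12 listed) were detected on every array.

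The outer membranes of neighbouring mitochondria are joined by the mitofusins MFN1 and MFN2, and the inner membranes by OPA1. Fission is carried out by DRP1, the dynamin-related GTPase encoded by Dnm1l, which is drawn from the cytosol to the surface by adaptors such as MFF. Long and short forms of OPA1 are set by the inner membrane proteases OMA1 and YME1L1. Cristae junctions are held by the MICOS complex, of which MIC60 (Immt) and MIC19 (Chchd3) are subunits. In skeletal muscle, loss of mitofusins or of OPA1 in mice leads to wasting, and raised fission machinery is a known feature of several atrophy models.

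Against SKRC39, no member passed the test in RXF393 muscle. The adjusted p-values of the 14 probes ran from 0.314 to 0.96, where 0.248% of all tested probes (44 of 17738) passed at 0.05, 0.113% as lower and 0.135% as higher. At an unadjusted p below 0.05 stood 2 of the 14 probes, 1 of Mfn2 and 1 of Dnm1l, beside 12.8% of all probes. Both RXF393 arrays lay below both SKRC39 arrays for 6 of the 14 probes, beside 19.7% of all probes. These were both tested probes of Mfn1, the probe of Mfn2, 2 probes of Dnm1l and the probe of Oma1. No member probe had both RXF393 arrays above, which 26.7% of all probes had. Taking for each gene its brightest tested probe, 6 of the 8 genes were lower and 2 higher in RXF393, with a median log2 change of -0.61. The median over all 10196 tested genes was 0.07, and 46.5% of them were lower. Tested probes pointed the same way for Mfn1, Dnm1l and Fis1, 3 of the 5 genes with more than 1, and not for Mff and Immt.

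**Figure D1:**
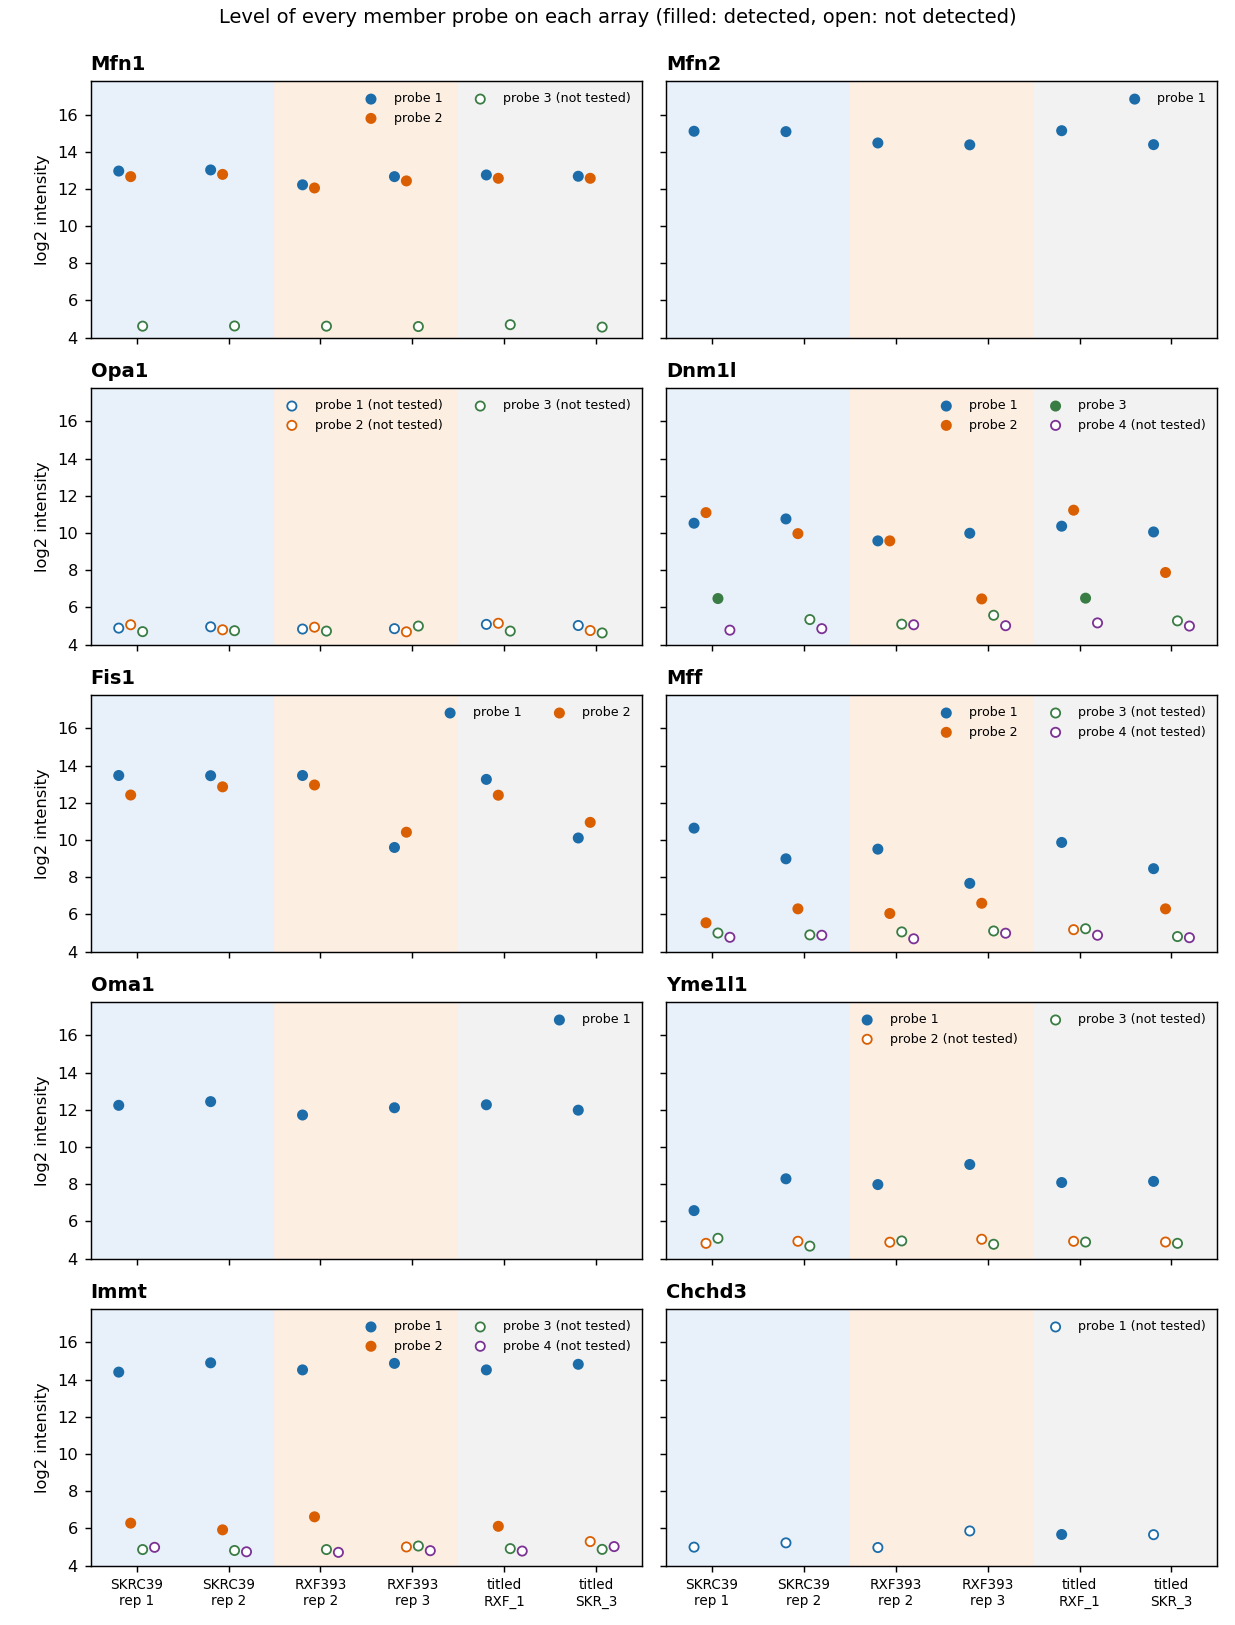
Log2 intensity of every probe of the 10 members on each of the 6 arrays, filled where detected and open where not, with the 2 arrays of conflicting labels (grey) apart from the SKRC39 (blue) and RXF393 (orange) groups. Mfn2 lies near 15.1 on both SKRC39 arrays and below 14.5 on both RXF393 arrays, while Fis1 is low on RXF393 replicate 3 and not on replicate 2.

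Mfn2, the mitofusin that also tethers mitochondria to the endoplasmic reticulum, had the lowest adjusted p of the members. Its probe (ILMN_2641278) read 15.10 and 15.08 in SKRC39 (replicates 1 and 2, the order kept for every member) and 14.47 and 14.37 in RXF393 (replicates 2 and 3). The groups did not overlap, and the spread within each was far smaller than the gap (means 15.09 ± 0.01 and 14.42 ± 0.07, SD, n = 2 each). The log2 change was -0.66 ± 0.23 (SE, 95% interval -1.20 to -0.13), a level 1.59-fold lower in RXF393, with a p of 0.0225 before and 0.314 after adjustment by limma. Leaving out each array in turn kept the change between -0.71 and -0.62. With median scaling it was -0.46 (adjusted p = 0.485), and without the intensity trend of the limma fit the adjusted p was 0.54. In neither of these settings did any member probe have an unadjusted p below 0.05. Among the arrays of conflicting labels, the one titled RXF_1 read 15.13, beside the SKRC39 arrays, and the one titled SKR_3 read 14.38, beside the RXF393 arrays.

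Mfn1, the other mitofusin, was measured by 2 detected probes. The brighter read 12.96 and 13.02 in SKRC39 and 12.22 and 12.66 in RXF393. The other read 12.66 and 12.78 in SKRC39 and 12.05 and 12.43 in RXF393. On both, RXF393 replicate 2 was the lowest array and the groups did not overlap. The log2 changes were -0.55 ± 0.33 (95% interval -1.34 to 0.23, adjusted p = 0.51) and -0.48 ± 0.34 (-1.28 to 0.32, adjusted p = 0.556). Without RXF393 replicate 2 they were -0.33 and -0.29. The arrays titled RXF_1 and SKR_3 read 12.75 and 12.68 on the brighter probe, between the groups. The third Mfn1 probe was detected on no array. Opa1, the fusion protein of the inner membrane, has 3 probes, and none was detected on any of the 6 arrays. Their readings of 4.63 to 5.15 were not above background. Mfn1 and Immt also have undetected probes beside bright ones, so these readings do not show how much Opa1 RNA was present.

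Of the fission genes, Dnm1l read lower on both RXF393 arrays than on both SKRC39 arrays for both of its well-detected probes. The first read 10.53 and 10.76 in SKRC39 and 9.58 and 9.99 in RXF393, a log2 change of -0.86 ± 0.48 (95% interval -1.98 to 0.26, adjusted p = 0.482). Leaving out each array in turn gave -1.07 to -0.65. The second read 11.10 and 9.97 in SKRC39 and 9.58 and 6.46 in RXF393. Its groups did not overlap either, but arrays of the same line differed by more than the groups' nearest members. Its log2 change was -2.52 ± 1.03 (95% interval -4.96 to -0.08), with a p of 0.0448 before and 0.382 after adjustment. It was -0.96 without RXF393 replicate 3 and -4.08 (adjusted p = 0.0376) without RXF393 replicate 2, so its size and its call depended on 1 array. On the array titled RXF_1 this probe read 11.23 and on that titled SKR_3 it read 7.88. Another Dnm1l probe, assigned to another transcript record, was detected on SKRC39 replicate 1 (6.48) and on the array titled RXF_1 (6.50) and on no other, with a log2 change of -0.57 ± 0.52 (adjusted p = 0.63). It was undetected on SKRC39 replicate 2 (5.35) as on both RXF393 arrays (5.10 and 5.58), so its readings overlapped and give no fold. The last Dnm1l probe was detected nowhere.

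Fis1, an outer membrane protein long described as a fission adaptor, differed more between the RXF393 arrays than RXF393 replicate 2 differed from SKRC39. Its brightest probe read 13.47 and 13.46 in SKRC39, 13.47 on RXF393 replicate 2 and 9.60 on RXF393 replicate 3. RXF393 replicate 2 thus matched SKRC39, and the log2 change of -1.93 ± 1.08 (95% interval -4.49 to 0.62, adjusted p = 0.487) rested on replicate 3 alone. It was 0.00 without RXF393 replicate 3 and -3.87 (adjusted p = 0.0122) without RXF393 replicate 2. The second Fis1 probe showed the same array as low, with 12.42 and 12.86 in SKRC39, 12.96 on RXF393 replicate 2 and 10.42 on replicate 3. Its log2 change was -0.95 ± 0.77 (adjusted p = 0.598), 0.32 without RXF393 replicate 3 and -2.22 (adjusted p = 0.046) without RXF393 replicate 2. The array titled SKR_3 was also low on both probes, at 10.11 and 10.95, and that titled RXF_1 was not, at 13.26 and 12.41.

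Mff, the outer membrane adaptor for DRP1, varied within both lines. Its brighter probe read 10.64 and 8.99 in SKRC39 and 9.51 and 7.67 in RXF393. The groups overlapped, with a log2 change of -1.22 ± 0.85 (95% interval -3.24 to 0.79, adjusted p = 0.552) that ranged from -2.15 without RXF393 replicate 2 to -0.30 without replicate 3. The dimmer probe, at 5.55 and 6.30 in SKRC39 and 6.05 and 6.60 in RXF393, gave 0.40 ± 0.55 (adjusted p = 0.763), so the direction of Mff depended on the probe. A further 2 Mff probes were detected on no array.

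**Figure D2:**
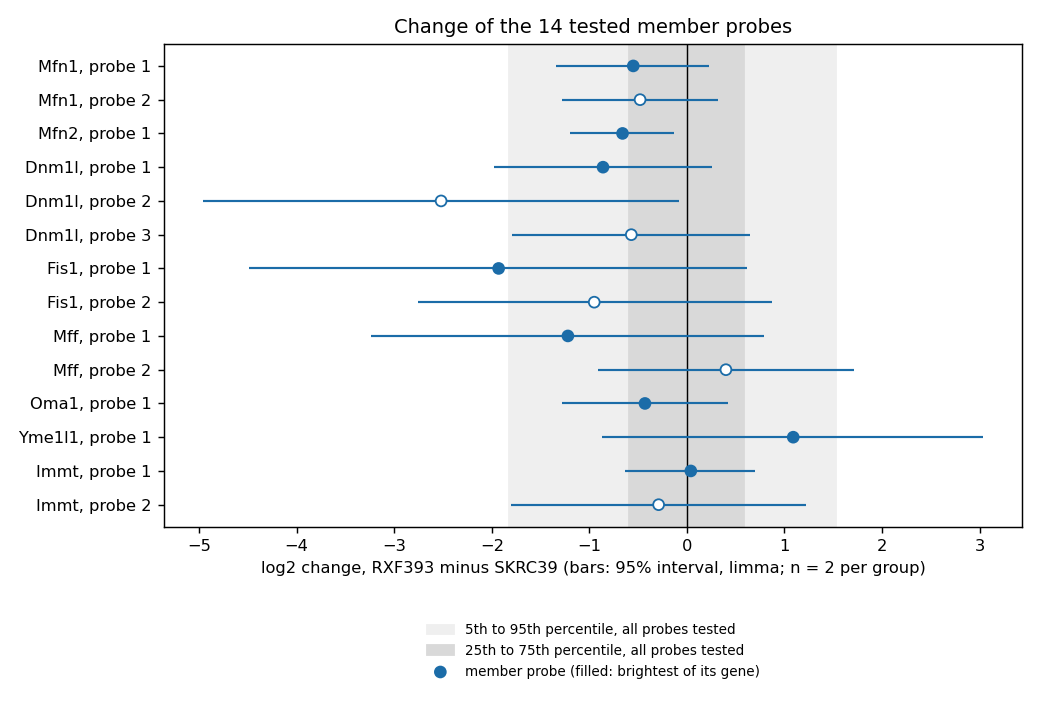
Log2 change, RXF393 minus SKRC39, of each tested member probe with its 95% interval from limma (2 arrays per group), with a filled point for the brightest probe of a gene and shading for the 25th to 75th (-0.59 to 0.59) and 5th to 95th (-1.82 to 1.53) percentile of all tested probes. The interval of Mfn2 (-1.20 to -0.13) and that of the second Dnm1l probe (-4.96 to -0.08) lie below 0 and the others include it.

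Of the proteases that cut OPA1, Oma1, the stress-activated one, read 12.24 and 12.44 in SKRC39 and 11.72 and 12.11 in RXF393. Both RXF393 arrays were below both SKRC39 arrays, by less than the test could separate (log2 change -0.43 ± 0.36, 95% interval -1.28 to 0.42, adjusted p = 0.609). Without RXF393 replicate 2 the change was -0.23. Yme1l1, the protease with its active site in the intermembrane space, read 6.58 and 8.29 in SKRC39 and 7.98 and 9.06 in RXF393. It was the member with the highest change, 1.09 ± 0.83 (95% interval -0.87 to 3.04, adjusted p = 0.581), and its groups overlapped. SKRC39 replicate 1 was its lowest array, and without that array the change was 0.23. The other 2 Yme1l1 probes were detected on no array.

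For cristae, Immt, the core MICOS subunit, read 14.40 and 14.90 in SKRC39 and 14.52 and 14.87 in RXF393, and both RXF393 arrays lay between the SKRC39 arrays. The log2 change was 0.04 ± 0.28 (adjusted p = 0.96), with a 95% interval from -0.63 to 0.70, narrower than that of any other member's brightest probe but Mfn2. A dimmer Immt probe, undetected on RXF393 replicate 3, gave -0.29 ± 0.64 (adjusted p = 0.857), -1.10 without RXF393 replicate 2 and 0.52 without replicate 3. The other 2 Immt probes were detected on no array. Chchd3, whose protein partners MIC60, has 1 probe that read 4.97 to 5.86 and was detected only on the array titled RXF_1.

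With all 6 arrays grouped by the characteristics, 3 against 3, RXF393 was lower for Mfn2 at -0.69 ± 0.12 (adjusted p = 0.013) and for the second Dnm1l probe at -2.79 ± 0.75 (adjusted p = 0.0432). These 2 of the 14 member probes passed as lower and none as higher, beside 6.95% of all probes passing as lower and 16% passing in either direction. All RXF393 arrays lay below all SKRC39 arrays for 6 member probes, the same ones as on the 4 arrays, beside 15.8% of all probes. Fis1 did not pass (-2.34 ± 0.88, adjusted p = 0.0993). With the 6 arrays grouped by title instead, Mfn2 was at -0.19 ± 0.31 and no member probe passed, as no probe of the whole array did, with 32 of 17738 at an unadjusted p below 0.05. Both groupings contain the same 4 arrays as the main comparison, and the member result depends on which label of the 2 conflicting arrays holds.

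**Figure D3:**
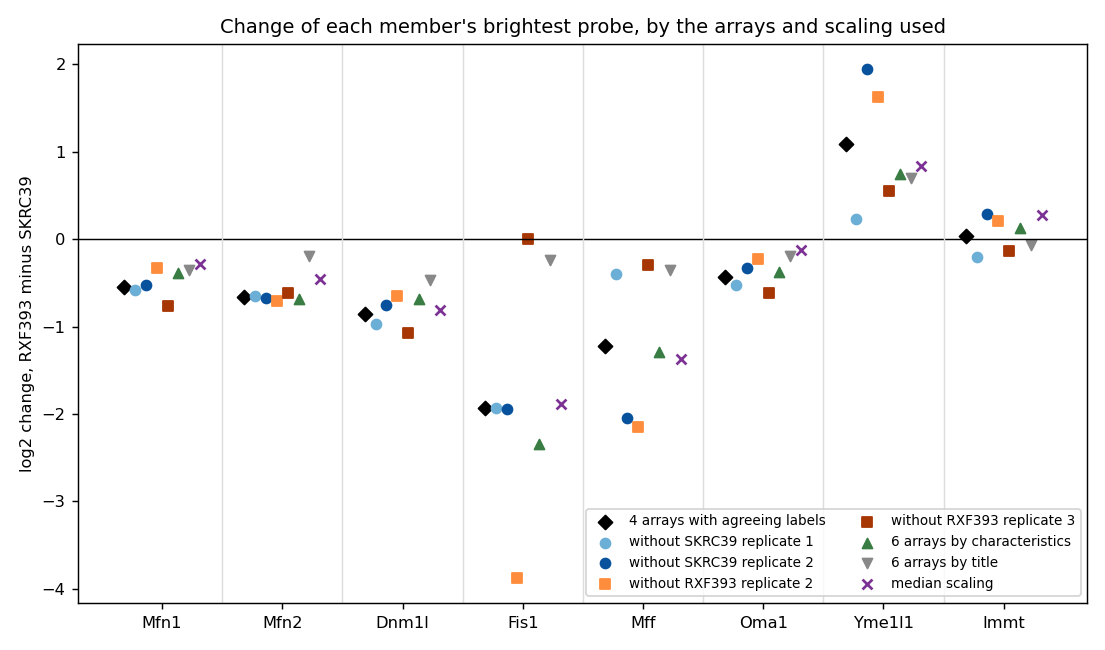
Log2 change of each member's brightest probe on the 4 arrays with agreeing labels, without each of them in turn, with all 6 arrays grouped by characteristics or by title, and with arrays scaled to their medians. Mfn2 lies between -0.71 and -0.62 without any 1 array and at -0.19 by title, and Fis1 goes from -1.93 to 0.00 without RXF393 replicate 3.

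The start regions of the members were read from RefSeq (GRCm38.p6), where all 10 genes have at least 1 window of 250 bases before to 50 after a transcription start, 15 windows in all. Of 5 motifs searched on both strands, the ETS core CCGGAAG, bound by GABP (NRF-2), a factor known for many mitochondrial genes, was in the windows of 6 of the 10 genes: Mfn1, Dnm1l, Fis1, Yme1l1, Immt and Chchd3. It is in 8.86% of all 32851 windows and in the windows of 9.93% of 27025 genes. Member windows with the ETS core were 54.7% to 70.3% GC, where the median of all windows is 52.7%, and these shares were not matched for GC. The NRF-1 core was in Opa1 only (0.971% of windows) and the E-box CACGTG in Chchd3 only (7.15%). The nuclear receptor half-site AAGGTCA (4.72%) and the FoxO motif GTAAACA (3.65%) matched none of the member windows. No 2 of these motifs overlap in a member window. A match describes letters only. The first windows of 4 genes are shown because Mfn2 and Dnm1l had the lowest p-values, Fis1 the strongest dependence on 1 array and Yme1l1 the highest change; capitals mark the ETS core on either strand, once in Dnm1l and Fis1, 3 times in Yme1l1 and not in Mfn2. They lie at chr4:147904860-147905159 (minus strand), chr16:16358526-16358825 (minus), chr5:136953025-136953324 (plus) and chr2:23156255-23156554 (plus), in this order.
Mfn2: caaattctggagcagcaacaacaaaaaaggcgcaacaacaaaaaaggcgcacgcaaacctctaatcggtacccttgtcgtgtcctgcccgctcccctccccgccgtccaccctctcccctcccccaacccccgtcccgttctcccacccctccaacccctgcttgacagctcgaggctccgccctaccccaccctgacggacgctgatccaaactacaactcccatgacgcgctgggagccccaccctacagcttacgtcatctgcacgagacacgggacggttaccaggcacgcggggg
Dnm1l: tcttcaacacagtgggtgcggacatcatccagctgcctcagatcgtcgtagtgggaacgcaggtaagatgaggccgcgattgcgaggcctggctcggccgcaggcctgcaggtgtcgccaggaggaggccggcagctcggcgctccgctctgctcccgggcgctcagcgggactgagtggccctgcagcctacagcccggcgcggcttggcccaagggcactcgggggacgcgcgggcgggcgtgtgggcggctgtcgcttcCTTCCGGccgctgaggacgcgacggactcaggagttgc
Fis1: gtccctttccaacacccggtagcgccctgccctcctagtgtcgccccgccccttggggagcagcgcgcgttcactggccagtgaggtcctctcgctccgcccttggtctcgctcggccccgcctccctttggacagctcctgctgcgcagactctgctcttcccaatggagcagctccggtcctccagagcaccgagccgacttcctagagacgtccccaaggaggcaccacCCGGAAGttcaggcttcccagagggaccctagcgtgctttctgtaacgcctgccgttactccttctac
Yme1l1: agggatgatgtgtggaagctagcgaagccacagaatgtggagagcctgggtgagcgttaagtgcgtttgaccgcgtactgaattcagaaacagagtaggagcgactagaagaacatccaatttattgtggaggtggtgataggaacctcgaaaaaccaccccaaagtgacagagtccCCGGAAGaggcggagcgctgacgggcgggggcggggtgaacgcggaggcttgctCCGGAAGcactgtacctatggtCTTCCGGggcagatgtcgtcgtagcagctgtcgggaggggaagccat
Genes with the ETS core had brightest-probe changes on both sides of 0, from -1.93 for Fis1 to 1.09 for Yme1l1, and Mfn2, without it in this window, was at -0.66.

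Around the members, 53 of 66 listed genes of fusion, fission, cristae, inner membrane quality control, cardiolipin and transport were tested, and none passed at an adjusted p of 0.05. Of the 53, 21 were higher and 32 lower in RXF393, with a median log2 change of -0.22, and 7 had an unadjusted p below 0.05, beside 14.8% of all genes. Both RXF393 arrays were below both SKRC39 arrays for 13 and above for 9, where 20.6% and 28.1% of all genes were.

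The other fission genes stood lowest, with 7 of 10 lower, none past the test and a median of -1.20. How far this median rests on RXF393 replicate 3 was not tested. Of the lower genes, Inf2 was undetected on that array, and Mtfr1l on both RXF393 arrays and on SKRC39 replicate 2. Gdap1, an outer membrane protein whose loss in humans causes a Charcot-Marie-Tooth neuropathy and which promotes fission, came nearest to the threshold. It read 10.84 and 10.78 in SKRC39 and 6.81 and 6.99 in RXF393, with 11.66 on the array titled RXF_1 and 6.92 on that titled SKR_3. Each RXF393 array was far below each SKRC39 array, and the log2 change was -3.91 ± 0.57 (adjusted p = 0.0584). Its other 2 probes gave -4.15 (adjusted p = 0.0738) and -1.66 (adjusted p = 0.221), and by characteristics on 6 arrays the first was at -4.18 (adjusted p = 0.00117). Mief2, an adaptor that recruits DRP1, gave -1.94 ± 0.77 (adjusted p = 0.372), or -0.72 without RXF393 replicate 3. Bnip1 gave -1.84 (adjusted p = 0.541) and was undetected on RXF393 replicate 3, without which it was at -0.47, and it was at -0.39 without SKRC39 replicate 1. On the higher side were Spire1 at 1.09, Marchf5, a ubiquitin ligase of the outer membrane, at 0.71 and Pgam5, a mitochondrial phosphatase, at 0.54, with adjusted p-values of 0.537 to 0.585. Spire1 was at 0.50 without SKRC39 replicate 1, and Marchf5 at 0.29 and Pgam5 at 0.32 without RXF393 replicate 3.

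Among the other fusion genes, 4 of 7 were higher and 3 lower (median 0.15), none past the test. Miga2, an outer membrane protein that aids fusion, was at -2.04 ± 0.63 (adjusted p = 0.278), followed by Stoml2 at -0.63 and Rab32 at -0.51, the last at -0.04 without RXF393 replicate 2 and 0.45 without SKRC39 replicate 2. Slc25a46 was at 1.01, but it was undetected on replicate 2 of both lines and was at -0.13 without RXF393 replicate 3. Miga1 was at 0.26 and Mtch2 at 0.17. Their other probes did not share a direction, at 0.11 and -0.35 for Miga1 and at 0.22 and -1.83 ± 1.78 for Mtch2. The other MICOS and membrane contact genes had 8 of 11 lower (median -0.22), none past the test. The MICOS subunits Micos10 and Micos13 were at -0.89 and -0.78, and Mtx3, a metaxin of the outer membrane, at -0.94, with adjusted p-values of 0.502 to 0.588. Micos10 was at -0.29 without RXF393 replicate 2 and Micos13 at -0.39 without SKRC39 replicate 2. Armc1 was at 1.23 (adjusted p = 0.38), Apool at 0.36 and Atad3a at 0.22. Armc1 was detected on both RXF393 arrays and on no other, so it passed the filter through the group where it was high. Its direction is therefore no result, although it is counted among the higher genes. Its RXF393 mean lay 1.79-fold above the lowest detected readings of the SKRC39 arrays.

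In the inner membrane quality control list 7 of 11 were lower (median -0.36), and none passed. Lonp1, a matrix protease, was at -2.01 and undetected on RXF393 replicate 3 (-0.68 without that array, -0.07 without SKRC39 replicate 1), Letm1 at -1.50 and Spg7 at -0.62. Without RXF393 replicate 3 Letm1 was at -0.43 and Spg7 at -0.09. Clpp, the proteolytic subunit of another matrix protease, was at 1.03 ± 0.38 (adjusted p = 0.348, and 0.58 without SKRC39 replicate 1) with its second probe at 1.28, Afg3l2 was at 0.48 and Ghitm at 0.16. For cardiolipin, the lipid of the inner membrane, 5 of 7 genes were higher (median 0.39), none past the test. Hadha, a subunit of the trifunctional protein of fatty acid oxidation, was at 1.31, the cardiolipin synthase Crls1 at 0.89 and tafazzin (Taz) at 0.45, against Triap1 at -0.40 and Ptpmt1 at -0.38. Probes disagreed for Taz, whose other one was at -1.37, and for Crls1, whose other ones were at 0.42 and -0.31, and Crls1 was at 0.33 without SKRC39 replicate 1. Of the transport genes 5 of 7 were lower (median -0.19), none past the test. Trak1, an adaptor to kinesin, was at -1.17 ± 0.48 (adjusted p = 0.379) and Rhot2, a Miro GTPase, at -0.995 ± 0.32 (adjusted p = 0.282) with its other probe at -1.75, against Trak2 at 0.41 (0.03 without SKRC39 replicate 1) and Rhot1 at 0.16. Kif1b was at -0.57 on its brightest probe and -0.03 there without RXF393 replicate 3, and its other probes, at 1.01, 0.63, 0.01 and -0.63, did not share a direction.

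A list of mitochondrial content genes was even, with 7 of 14 higher and 7 lower and a median of -0.01, none past the test. Vdac3 was at -2.64, Timm44 at -2.16 and citrate synthase (Cs) at -1.14, and Tomm22 at 1.75 (its other probe at -0.36) and Hspd1 at 0.68. Tomm40, at 0.59 (adjusted p = 0.543), was detected on both RXF393 arrays and on no other. It passed the filter through the group where it was high, so its place among the 7 higher genes is no result. Its RXF393 mean lay 1.31-fold above the lowest detected readings of the SKRC39 arrays. Without RXF393 replicate 3 Vdac3 was at -0.49, Cs at -0.52 and Timm44 at -0.22, and without SKRC39 replicate 1 Vdac3 was at -0.88, so the size of these values rested on single arrays.

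**Figure D4:**
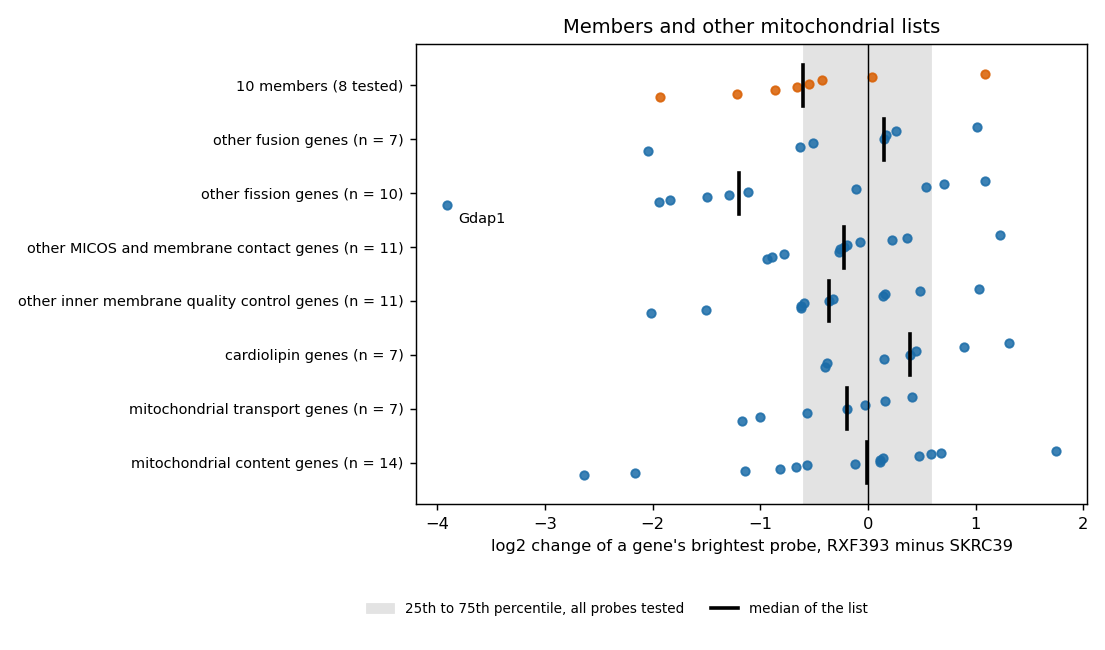
Log2 change, RXF393 minus SKRC39, of the brightest probe of each tested gene in the members and in 7 other lists, with each list's median as a bar and the 25th to 75th percentile of all tested probes (-0.59 to 0.59) shaded. The medians of the members (-0.61) and of the other fission genes (-1.20) lie lowest, and Gdap1 is the point farthest left.

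No cell type marker passed the test, but several lists, that of muscle fibres among them, had sums that did not overlap between the groups. Of all single genes, 20.6% lay below and 28.1% above without overlap. A sum adds intensities before the log, so its brightest markers weigh most, as Dcn among the fibroblast markers. The summed log2 intensity of the 11 fibre markers was 19.21 and 19.21 in SKRC39 and 19.11 and 19.05 in RXF393, without overlap. Of the 11, 8 were lower in RXF393, beside 46.5% of all genes. Acta1 and Ckm, whose readings of 16.03 to 16.14 lay near the top of the scale, were at 0.03 and 0.00. Tnni2, Tnnc2 and Pvalb also lay there, at -0.01, -0.03 and 0.07, with Pvalb higher on both RXF393 arrays than on both SKRC39 arrays. Tnnt3 (-0.13) and Ttn (-0.18) read little below. Changes near the top may be compressed, and these bright markers weigh most in the fibre sum. Lower on both RXF393 arrays than on both SKRC39 arrays were Pygm, the muscle glycogen phosphorylase, at -1.04 ± 0.39 (adjusted p = 0.353), myoglobin (Mb) at -0.78 ± 0.22 (adjusted p = 0.24) and the myosin heavy chain Myh1 at -0.56 ± 0.28 (adjusted p = 0.442), changes of the size of that of Mfn2. These markers were named after their values were seen. The summed log2 intensity of 10 neutrophil markers was 8.87 and 9.68 in SKRC39 and 11.07 and 12.66 in RXF393, with 3 markers detected on each SKRC39 array and 4 on each RXF393 array, and Ngp, Camp, Ltf, Mmp8 and Cxcr2 detected on none. Of the 5 neutrophil markers tested, 4 were higher and Csf3r was lower, at -0.24. The sum of 9 fibroblast markers was 14.91 and 15.24 in SKRC39, with all 9 detected, and 14.25 and 14.63 in RXF393, with 6 and 4 detected. The sums for the erythroid markers were 17.09 and 16.46 in SKRC39 and 17.20 and 17.12 in RXF393, with Hba-a1 and Hbb-bs near the top of the scale on most arrays. Alas2, of haem synthesis in red cell precursors, was at 2.61 ± 0.53 (adjusted p = 0.142) and Slc4a1, the red cell anion exchanger, at 3.65 ± 0.67 (adjusted p = 0.113), each higher on both RXF393 arrays. The macrophage, endothelial and adipocyte sums overlapped between the lines. The part of these cells in the members' values was not tested, and in whole muscle fewer cells of a type and less RNA per cell cannot be told apart.

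Profiles over the 6 arrays were compared for the 3 members whose brightest probe changed most, by the root mean square difference of centred log2 values among 8695 genes detected on at least 4 arrays. Nearest to Fis1 were Ldhd (0.11) and Ap2s1 (0.16), against a spread of Fis1 itself of 1.69. Ldhd read 10.30 and 10.33 in SKRC39, 10.23 on RXF393 replicate 2 and 6.42 on RXF393 replicate 3, the same single low array of the 4. Nearest to Mff were Thoc2 (0.17) and Trip6 (0.18), and nearest to Yme1l1 were Cct5 (0.17) and Map2k1 (0.19).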

How the data were processed

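Total RNA of 6 quadriceps samples was measured on beadchips. The authors deposited 2 tables. The main one, per the file headers, gives the raw intensity of each probe on each array, not log-transformed, and beside it a detection p-value. The other deposited table, an alternative here, gives intensity that the authors quantile-normalized with the Illumina Genome Studio software (Gene Expression module 1.9.0), as the labels' design text has it. No genome build is given for the array files in the sources used here. The platform annotation gives 1 gene symbol for 34885 of the 45281 probes, several for 18 and none for 10378, and 34807 were matched to RefSeq by gene ID, all 26 member probes among them.

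Background was corrected by normexp with negative controls inferred from the detection p-values, followed by quantile normalization over 6 arrays, an offset of 16 and log2 (neqc, limma 3.58.1, R 4.3.3). The offset makes changes of dim probes too small, and the number of arrays limits precision. Probes detected (p below 0.05) on 2 or more arrays were tested with limma (lmFit, eBayes with an intensity trend) on 2 against 2 arrays, with Benjamini-Hochberg adjustment over 17738 probes and a threshold of 0.05. A gene's main probe is its tested probe with the highest mean. Folds over lowest detected readings set the mean of the brighter group against each array's lowest detected reading, or the dim probe's own where that was higher. They carry no sampling error. The fit was tested on simulated data.

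Named are all members with every probe, the up to 3 highest and 3 lowest genes of each other list, any past the threshold, and the 2 genes most like each of the 3 members with the largest change of the main probe. Members, lists and tests were chosen with earlier results of these data known. Alternatives changed background, scaling, filter, variance model, probe choice, arrays and pairing.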

Additional observations from a re-analysis of the deposited data

Results flagged for a closer look

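The single Chchd3 probe was below the detection filter and entered no comparison, but it was detected on the array titled RXF_1, which belongs to no group, at a log2 intensity of 5.67. On the 4 arrays that were compared it was detected on none, with readings of 4.97 to 5.86, so the detected value lies inside the range of the undetected ones.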

How the results depend on the processing

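The count of member probes past the threshold stayed at 0 except with the 6 arrays grouped by characteristics (2), the same with a replicate block (4), and in the leave-one-out fits (0 to 3, the 3 without RXF393 replicate 2; the lone array of a line is there assumed to vary like the other line's). Over all probes the count was 44, and 29 with the authors' table, 202 on probes detected on all 6 arrays, 118 with robust variance, 0 with median scaling (2288 at an unadjusted p below 0.05), 0 without the intensity trend (2144), 2838 by characteristics, 0 by title (32), 561 with a replicate block on 4 arrays, 5175 with a replicate block on 6 arrays by characteristics, and 25 to 734 leaving out 1 array. The description numbers pair the 4 arrays in 2 pairs, too few to establish pairing, and over 6 arrays the same-numbered deviations correlated at 0.486, -0.119 and 0.464, so the block is given here only. The block on 6 arrays gave adjusted p-values of 0.0149 for Mfn2, 0.00784 for the second Dnm1l probe, 0.0376 for Fis1 and 0.0214 for Mff. The median change of the members (-0.61) was -0.37 with median scaling, which moved the median of all probes from 0.05 to -0.08, -0.47 with the mean of a gene's probes, -0.53 by characteristics with or without the block, -0.22 by title, and -0.60 to -0.46 leaving out 1 array. Direction turned by title for the third Dnm1l probe (0.03), the dimmer Mff probe (-0.10), the Immt probes (-0.07 and 0.08), Bnip1 (0.12), Apool (-0.40), Atad3a (-0.18), Spg7 (0.13), Triap1 (0.08), Trak2 (-0.04), Kif1b (0.23) and Vdac3 (0.20), with median scaling for Miga1 (-0.10) and Apool (-0.03), and for Miga1 by characteristics with and without the block (-0.06). Leaving out 1 array turned Immt (-0.21 to 0.29 and -1.10 to 0.52), Fis1 (-3.87 to 0.00 and -2.22 to 0.32), Miga1 (-0.13 to 0.65), Slc25a46 (-0.13 to 2.14), Rab32 (-1.47 to 0.45), Mtch2 (-0.15 to 0.49), Apool (-0.14 to 0.85), Atad3a (-0.25 to 0.69), Afg3l2 (-0.43 to 1.39), Ghitm (-0.20 to 0.52), Ptpmt1 (-0.92 to 0.16), Triap1 (-0.84 to 0.05) and Rhot1 (-0.10 to 0.42). Gdap1 passed on probes detected on all 6 arrays (adjusted p = 0.0103), with robust variance (0.0247), by characteristics (0.00117), with the block on 4 arrays (0.0164) and without RXF393 replicate 2 (0.0266). Gdap1 was not alone in this. By characteristics Trak1 (adjusted p = 0.0256), Miga2 (0.0283), Rhot2 (0.03), Mief2 (0.044) and Cs (0.0464) also passed as lower. Clpp (0.0281), Hadha (0.0344) and Tomm22 (0.0382) passed as higher there, beside 16% of all probes in either direction. The cause of these changes was not tested.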
